A study of Mus musculus with 8 samples.

Results

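The miR-26 family (mmu-miR-26a and mmu-miR-26b) and the miR-101 family (mmu-miR-101a and mmu-miR-101b) were followed in brown adipose tissue of mice kept in the cold or at room temperature. The 4 members are the array rows that carry exactly these names, of 566 mouse miRNAs on the array and of 189 that were bright enough to be compared. None of the 4 differed between the groups after adjustment over all 189 miRNAs, at changes of −0.23 to −0.06 on the log2 scale, while 29 of the 189 (15.3%) did. The miR-26 sisters gave nearly equal signal, at ranks 18 and 21 of 189, and the miR-101 sisters lay well below them at ranks 59 and 81. The signal of a spot depended on where on the array it was printed, which is described before the changes. A correction for this moved the changes of miR-26a, miR-26b and miR-101a. That of miR-101b, read from 1 kept probe, was −0.20 with and without it, and −0.15 from spots in the middle rows only. Over 20 other settings of the processing the change of miR-101b ran from −0.64 to −0.02.

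The tissue came from male C57Bl6N mice aged 8 weeks. In one group 3 mice had been at 8 °C for 24 h, and in the other 3 mice stayed at 21 °C, called room temperature here. The labels name no transgene or drug in either group. Total RNA extracted with Trizol carried the dye Cy3 and was hybridised to 1-colour Agilent miRNA arrays. Mice 1, 2 and 3 were the cold mice and mice 4, 5 and 6 the room temperature mice. Mouse 1 and mouse 4 had 2 arrays each, which were averaged, so that 8 arrays gave n = 3 mice per group. The 8 arrays lay on 1 slide, with the cold arrays in one row of it and the room temperature arrays in the other. Position on the slide and temperature therefore cannot be told apart.

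A miRNA guides the Argonaute protein to messenger RNAs that pair with its seed, the short stretch near its 5′ end, and lowers their stability and translation. The miR-26 genes lie in genes of the Ctdsp family of small phosphatases and are transcribed along with them, and in human adipocytes miR-26 has been reported to favour a brown-like programme. Both families are known to repress Ezh2, the histone methyltransferase of the Polycomb repressive complex, in other cells. The arrays measured miRNAs only, so no target was read here.

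The mature sequences are shown because the array has to tell apart sisters that differ by 1 or 2 bases where they align. They also differ at their ends, with 22 and 21 bases for miR-26a and miR-26b and 21 and 19 for miR-101a and miR-101b. The sequences are from RefSeq (GRCm38.p6), 5′ to 3′, with the seed (bases 2 to 8) in capitals.
miR-26a: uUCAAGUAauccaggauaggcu
miR-26b: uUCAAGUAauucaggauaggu
miR-101a: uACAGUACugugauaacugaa
miR-101b: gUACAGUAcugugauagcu

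The miR-26 sisters carry the same seed, UCAAGUA, and matched at 19 of 21 aligned bases (90.5%). Counted from the 5′ end of miR-26a, they differ by C11U and C21U. Of 1679 mature mouse miRNAs in the RefSeq table, no other carries that seed. The entry for miR-101b starts 1 base before that of miR-101a, so the seeds read UACAGUA and ACAGUAC, and neither was shared with another entry. Over the 18 bases they have in common the miR-101 sisters differ by A16G, counted from the 5′ end of miR-101a (17 of 18 bases, 94.4%). The sequence of miR-101c lies inside that of miR-101a, and miR-101c had no row on the array.

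The mature miR-26a is encoded by the genes Mir26a-1, at chr9:119031811-119031832 on the plus strand within the gene Ctdspl, and Mir26a-2, at chr10:126995543-126995564 on the plus strand within Ctdsp2. The array cannot separate these copies, whose mature sequence is the same. miR-26b lies at chr1:74394324-74394344 on the plus strand within Ctdsp1. miR-101a lies at chr4:101346957-101346977 on the minus strand within the span of the long non-coding RNA gene E130102H24Rik. miR-101b lies at chr19:29135338-29135356 on the plus strand within Rcl1.

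Each member was read by 2 probes of 10 spots each. All probes but one were well above background on all 8 arrays. The exception was A_54_P2593 of miR-101b, which was well above background on 4 arrays and was left out of the level of miR-101b. Levels below are log2 of the signal over the 75th percentile of the array, averaged over a member's kept probes, so that 0 is a bright probe and −3 is 3 doublings below it. Signal also depends on how well each probe binds and on where its spots were printed, as described below. The gap between probes of 1 miRNA holds both and does not measure binding alone. The probes of miR-26a lay 1.35 apart on the log2 scale (2.55-fold), those of miR-26b 0.74 apart, those of miR-101a 0.08 apart and those of miR-101b 2.79 apart (6.93-fold). The small gap of miR-101a averages opposite gaps. A_54_P2268 was brighter than A_54_P4365 in the cold (−1.44 against −1.81) and dimmer at room temperature (−1.67 against −1.14). The gap of miR-101b includes the dim A_54_P2593. Differences of level between sisters are therefore differences of signal, not of molecule number, and whether a probe also binds the sister was not tested.

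The spots of 1 probe are scattered over the 192 printing rows of the array, and the signal of a spot depended on its row in opposite ways in the groups. Among spots of probes that were bright on all 8 arrays, those in rows 1 to 24 stood at −2.74 relative to the median spot of their probe in the cold mice and at −0.08 at room temperature (log2). In rows 169 to 192 the cold spots stood at 0.02 and the room temperature spots at −2.34. Each array followed its group: the medians in rows 1 to 24 ran from −2.88 to −2.27 on the cold arrays and from −0.05 to 0.05 on the others. As a result the median difference of cold minus room temperature climbed from −2.52 in rows 1 to 24 (283 of 288 spots negative) to 2.45 in rows 169 to 192 (3 of 279 negative). Spots of 8 control probes of the array moved alike, with medians of −1.15 in rows 1 to 64, 0.44 in rows 65 to 128 and 1.68 in rows 129 to 192. The cause was not tested.

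**Figure D1:**
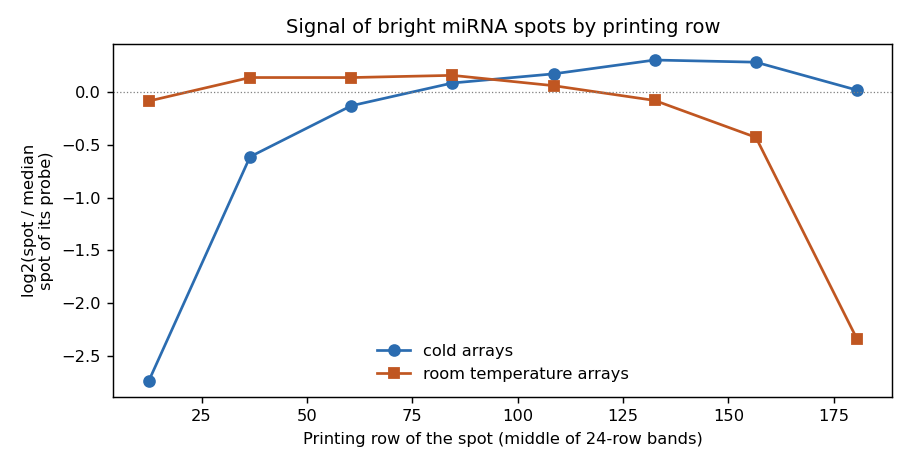
Median log2 signal of bright miRNA spots relative to the median spot of their probe (y axis) in 24-row bands of the array (x axis), for cold arrays (blue) and room temperature arrays (orange). Cold arrays are dim in the first rows (−2.74) and room temperature arrays in the last (−2.34).

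The level of miR-26a in the cold mice was 0.51, 1.04 and 1.00, and at room temperature it was 0.77, 1.10 and 0.87. Before scaling these were 1126, 1876 and 2143 signal units in the cold and 1824, 2002 and 2849 at room temperature. Mouse 1 was lowest on both scales, and the groups overlapped. The change was −0.06 ± 0.18 (SE, n = 3 mice per group), with a 95% interval of −0.48 to 0.36, and limma's Benjamini-Hochberg adjusted p was 0.84. In folds the cold level was 0.959 times the room temperature level, with an interval from 0.717 to 1.28. The values of these mice are compatible with changes anywhere inside that interval. The sign rested on single mice, since the change was 0.11 without mouse 1 and 0.03 without mouse 5. The 2 arrays of mouse 4 read 0.55 and 0.99 for miR-26a, a wider gap than that between the group means. Those of mouse 1 read 0.50 and 0.53.

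miR-26b stood at 0.83, 1.04 and 0.87 in the cold and at 0.90, 1.13 and 0.91 at room temperature. This spread was narrower than that of miR-26a, and again the groups overlapped. The change was −0.07 ± 0.13 (SE, n = 3 per group; 95% interval −0.38 to 0.24; limma, adjusted p = 0.747). It was 0.01 without mouse 5. The 2 arrays of mouse 4 lay 0.55 apart and those of mouse 1 lay 0.24 apart, both more than the groups.

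miR-101a stood at −1.78, −1.57 and −1.53 in the cold and at −1.43, −1.43 and −1.35 at room temperature. The cold mice were all below the room temperature mice, a separation seen, in one direction or the other, for 73 of the 189 miRNAs (38.6%). The change was −0.23 ± 0.13 (SE, n = 3 per group), with a 95% interval of −0.52 to 0.07 and an adjusted p of 0.272 with limma. The exact permutation test over mice (2-sided) gave p = 0.1, which is the lowest value it can reach with 3 mice a side. The closest mice of the 2 groups, at −1.53 and −1.43, were nearer than the 2 arrays of mouse 1, which lay 0.27 apart. The 2 arrays of mouse 4 were closer, at −1.40 and −1.46. Without mouse 1 the change of miR-101a was −0.15.

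miR-101b was the dimmest member, at −3.16, −2.83 and −2.89 in the cold and −2.94, −2.46 and −2.87 at room temperature. In signal units this was 70.0, 117.7 and 123.7 in the cold and 128.8, 157.2 and 192.2 at room temperature, against means of 1.37 and 0.762 units for probes of mouse viruses, which served as background. On the scaled level mouse 5 was the highest and the groups overlapped, whereas in unscaled units mouse 6 was the highest and the groups did not overlap. Unscaled signal was lower in the cold in general, with a median change of −0.46 over all 189 miRNAs. How many of these separated in unscaled units was not counted, so that separation is not read as particular to miR-101b. The change of the scaled level was −0.20 ± 0.17 (SE, n = 3 per group; 95% interval −0.61 to 0.20; limma, adjusted p = 0.438). It was −0.06 without mouse 5 and −0.10 without mouse 1. The 2 arrays of mouse 1 read −3.09 and −3.23, and those of mouse 4 read −2.88 and −2.99. The left-out probe A_54_P2593 read 8.61, 17.6 and 8.52 units in the cold and 23.6, 26.4 and 41.5 at room temperature. Its log2 change was −0.97, with mouse 3 at the lowest value allowed, and −0.75 after the correction for printing position described below.

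**Figure D2:**
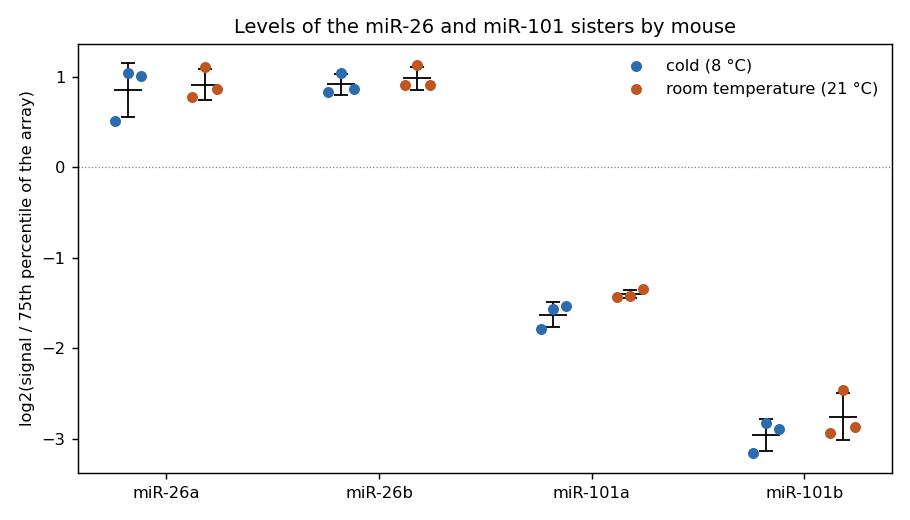
Log2 level relative to the 75th percentile of the array (y axis) of the 4 members, 1 point per mouse, for the 3 cold mice (blue) and the 3 room temperature mice (orange). Long bars are means and short bars 1 SD; the groups overlap for miR-26a, miR-26b and miR-101b, and the cold mice lie below the others for miR-101a.

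The sisters were then set against each other within each mouse. miR-26a minus miR-26b was −0.32, −0.01 and 0.14 in the cold and −0.14, −0.03 and −0.05 at room temperature. Their signals thus stayed within 0.32 of each other in each of the 6 mice, and neighbouring ranks (18 to 22 for miR-26a, 16 to 20 for miR-26b) interleaved. miR-101a exceeded miR-101b by 1.38, 1.26 and 1.36 in the cold and by 1.50, 1.03 and 1.53 at room temperature. That gap was present in 6 of 6 mice, and the ranks of the miR-101 sisters did not meet (55 to 59 and 77 to 82). The changes of the sisters differed by 0.01 for miR-26 and by −0.02 for miR-101, with p = 0.9 and p = 1 by exact permutation over mice (2-sided; smallest possible 0.1). Both signs turn under other settings, given in the closing part on processing.

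Over the 6 mice the log2 levels of miR-26a and miR-26b had a Pearson r of 0.75, and those of miR-101a and miR-101b had 0.61, as a description of 6 points that share array scaling. Sisters were not each other's closest match: of 188 other miRNAs, miR-26b ranked 21 for miR-26a, and miR-101b ranked 44 for miR-101a. The closest to miR-26a were miR-19b (r = 0.96), miR-365 (0.94) and miR-24 (0.90). The closest to miR-26b were miR-23b (0.95), miR-202-3p (0.93) and miR-24 (0.93). miR-101a came closest to miR-425 (0.97), miR-99a (0.96) and miR-27a (0.94), and miR-101b to miR-30a* (0.96), miR-23b (0.95) and miR-484 (0.94).

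The slope over printing rows described above was also seen in the spots of the 4 members. All 21 spots of their kept probes in rows 1 to 64 were lower in the cold mice, with a median of −2.13, and all 22 in rows 129 to 192 were higher, with a median of 1.35. For all bright spots these medians were −1.19 and 1.09. For miR-26a the median ran from −2.14 over 5 spots to −0.10 over 8 and 2.37 over 7 in the low, middle and high rows. For miR-101a it ran from −2.82 over 6 spots to −0.16 over 6 and 1.34 over 8. In the middle rows 65 to 128, where all bright spots had a median of 0.03, 14 of the 27 member spots were lower in the cold.

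**Figure D3:**
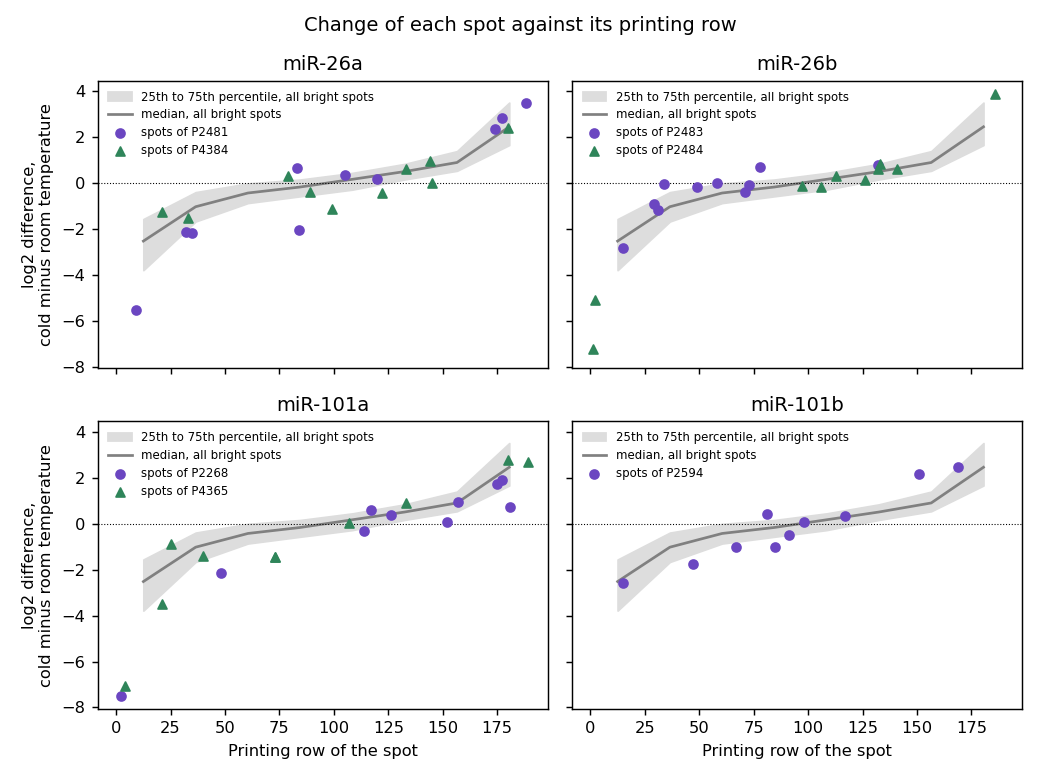
Log2 difference of cold minus room temperature (y axis) of each spot of the kept probes of the 4 members against the printing row (x axis), with the median (line) and the 25th to 75th percentiles (band) of all bright spots. Each symbol is 1 spot, coloured by probe; member spots are below 0 in rows 1 to 64 and above 0 in rows 129 to 192.

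The probes of one member differed in where their spots lay, and their changes differed too. For miR-26b, A_54_P2483 had 6 of its 10 spots in rows 1 to 64 and a change of −0.36, with 802, 1108 and 1289 units in the cold against 1755, 1619 and 2062 at room temperature. Its partner A_54_P2484 had 2 spots there and 4 in rows 129 to 192, and its change was 0.23. The cold mice thus lay below the others by one probe of miR-26b and on average above them by the other.

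For miR-101a, A_54_P4365 had 4 spots in rows 1 to 64 and 3 in rows 129 to 192, and a change of −0.68. Its levels were −1.96, −1.84 and −1.64 in the cold and −1.12, −1.20 and −1.09 at room temperature. The partner A_54_P2268, with 2 spots in the low rows and 5 in the high rows, had a change of 0.23, at −1.61, −1.30 and −1.42 in the cold and −1.75, −1.65 and −1.61 at room temperature. The drop of miR-101a in the average was therefore carried by 1 probe, and the other had the opposite sign. When only the brightest probe of each miRNA was used, miR-101a passed the test at −0.68 (limma, adjusted p = 0.0185), where 17 of 189 miRNAs (8.99%) were called lower. That choice of probe rested on the room temperature mice, in which A_54_P4365 had a mean of −1.14 against −1.67 for A_54_P2268. In the cold mice A_54_P2268 was the brighter, at −1.44 against −1.81, so the choice favours a drop and this pass is no support for one. Over its alternatives the adjusted p of miR-101a ran from 0.0185 to 0.747. For miR-26a the probes read −0.22 (A_54_P2481) and 0.10 (A_54_P4384), and the kept probe of miR-101b read −0.20.

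Over all 329 kept probes, the mean row of a probe's spots and its change had a Pearson r of 0.46 and a Spearman rho of 0.55. This is a description across probes, which share arrays and are not replicates.

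To see the members without this slope, each spot was divided by a smooth surface over row and column fitted to its array, a step chosen after the data were seen. The correlation with row over the 329 probes was then −0.09. The fit itself brings this about, since it followed the rows of bright spots, those of the members included. The probes of miR-101a and of miR-26b drew nearer to each other, while those of miR-26a stayed apart. Those of miR-101a read −0.45 and −0.48, those of miR-26b 0.25 and −0.07, and those of miR-26a −0.35 and −0.05. The sign difference of the miR-101a probes was thus gone, while that of the miR-26b probes had turned round.

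**Figure D4:**
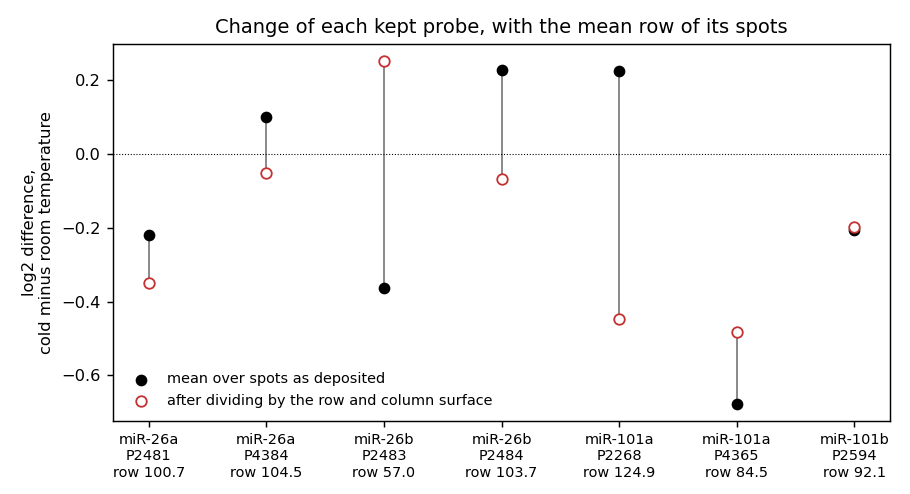
Log2 difference of cold minus room temperature (y axis) of the 7 kept probes of the members (x axis, with the mean printing row of their 10 spots), from spots as deposited (filled) and after division by the row and column surface (open). The probes of miR-101a move from 0.23 and −0.68 to −0.45 and −0.48.

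After the surface step miR-101a stood at −2.07, −1.82 and −1.60 in the cold and at −1.41, −1.35 and −1.32 at room temperature. The groups were further apart than before, and did not overlap, as for 59 of 189 miRNAs (31.2%) at this setting. The change was −0.46 ± 0.16 (SE, n = 3 per group; 95% interval −0.82 to −0.11). With limma its unadjusted p of 0.0168 was one of 44 such values under 0.05 (23.3% of 189), and its adjusted p of 0.11 did not pass, whereas 18 miRNAs (9.52%) did. No member passed: miR-26a changed by −0.20 (adjusted p = 0.504), miR-26b by 0.09 (0.728) and miR-101b by −0.20 (0.508).

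The difference in change between the miR-26 sisters was −0.29 after this step. miR-26a minus miR-26b was −0.52, −0.34 and −0.19 in the cold and −0.18, 0.00 and 0.00 at room temperature. The cold mice all lay lower, though the closest mice, at −0.19 and −0.18, nearly met. Exact permutation (2-sided) gave p = 0.1, the lowest value it can reach. How often other pairs of miRNAs separate in this way was not counted. Without the surface step the difference was 0.01 (exact permutation, 2-sided, p = 0.9). For the miR-101 sisters the difference was −0.27 (exact permutation, 2-sided, p = 0.2).

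A second way to set the edges aside, also chosen after the data were seen, kept only spots in rows 49 to 144. It left 10 of 20 spots for miR-26a, 13 of 20 for miR-26b, 7 of 20 for miR-101a and 6 of 10 for miR-101b. The changes were then 0.05, 0.24, −0.08 and −0.15. For miR-101a the groups now overlapped, with −1.53, −1.50 and −1.12 in the cold and −1.12, −1.45 and −1.34 at room temperature. For miR-26b they did not, with 1.07, 0.98 and 1.09 in the cold and 0.76, 0.90 and 0.78 at room temperature. The same held for miR-101b, and for 68 of the 189 miRNAs (36.0%) at this setting. None of the 4 passed (limma, adjusted p = 0.197 for miR-26b and 0.747 for miR-101a). The 2 ways of setting the slope aside thus gave different sizes for miR-101a, −0.46 and −0.08. Over all 189 miRNAs the median change was −0.08 for the surface and 0.14 for the middle rows. Relative to these medians miR-26a stood at −0.12 and −0.09, miR-26b at 0.17 and 0.10, miR-101a at −0.39 and −0.22 and miR-101b at −0.12 and −0.29. Each member thus had the same sign under both. Without either step, miR-26a, miR-26b, miR-101a and miR-101b stood at −0.04, −0.05, −0.20 and −0.18 relative to the median. The sign of miR-26b was therefore the opposite there.

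**Figure D5:**
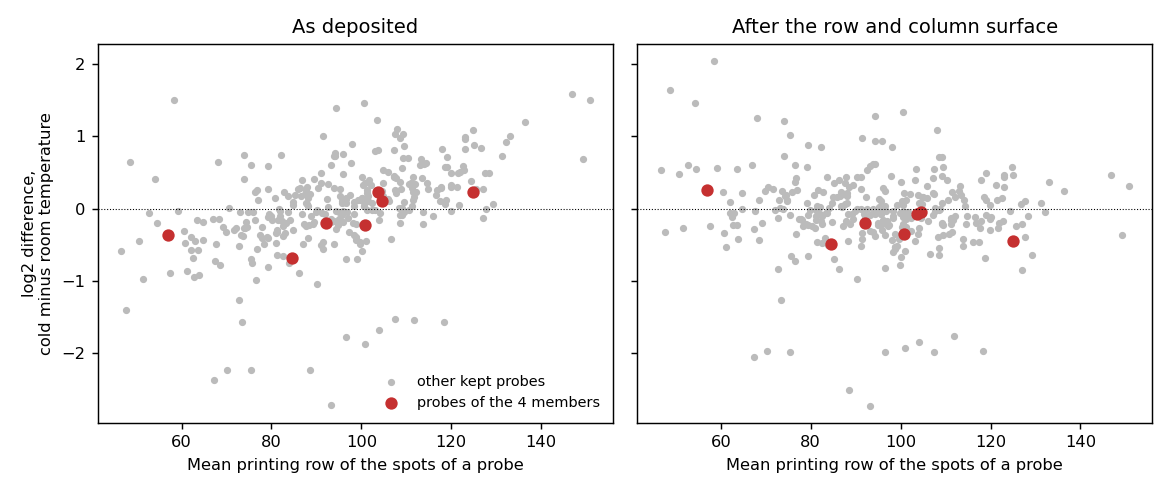
Log2 difference of cold minus room temperature (y axis) of the 329 kept probes against the mean printing row of their spots (x axis), from spots as deposited (left) and after the row and column surface (right). Red points are the 7 probes of the members; the slope seen on the left (Pearson r = 0.46) is nearly flat on the right (−0.09).

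The passenger strands, which are usually degraded when the guide strand is loaded, were read for 2 of 6 listed names. miR-26b* averaged −0.16 units in the cold and 0.45 at room temperature, and miR-101a* averaged −1.07 and −0.82 units. The viral probes averaged 1.37 and 0.762 units, and both passenger strands were well above background on none of the 8 arrays.

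Ezh2 is also a reported target of other miRNAs, and 9 of them were listed beside the members, of which 5 were bright enough to compare. None rose (16 of all 189 did, 8.47%), 1 fell (13 of 189 did, 6.88%) and 4 did not pass. The one that fell was miR-214, a stromal miRNA, at −0.75 (limma, adjusted p = 0.0121), and it fell by 0.74 after the surface step (adjusted p = 0.0189). let-7c at 0.39 (adjusted p = 0.144) and miR-98 at 0.33 (0.116), both of the let-7 family, did not pass. After the surface step they stood at 0.04 and −0.02. The median over the 5 was 0.15, against −0.02 over all 189, and 0.04 after the surface step, against −0.08.

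Of 12 miRNAs listed as promoting brown fat, 9 were compared, 2 rose (16 of all 189 did, 8.47%) and 7 did not pass. miR-193b, made from a locus active in brown adipocytes, rose by 0.64 (limma, adjusted p = 0.0129) and miR-378, from an intron of Ppargc1b, by 0.97 (0.0219). After the surface step they stood at 0.40 and 0.51, and neither passed (adjusted p = 0.094 and 0.115). miR-182 at 0.40 did not pass (0.0864). The changes of 4 of the 9 were negative (−0.32 to −0.02), among them that of miR-365 at −0.07. That value averages 2 probes of opposite sign, A_54_P4390 at 0.82 (mean row 123.1) and A_54_P4391 at −0.97 (mean row 51.5). The median over the 9 was 0.13, against −0.02 over all 189, and 0.02 after the surface step, against −0.08.

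The tissue label was set against marker miRNAs, whose sums are given in unscaled units and whose changes are on the scaled log2 level. Sums are over all miRNAs listed, the dim ones included, and median changes over those compared. Unscaled signal was lower in the cold in general: the median change of all 189 miRNAs was −0.46 without scaling and −0.02 with it. All 3 on the brown adipocyte list were bright enough to compare and summed to 3883 to 7003 units in the cold and 5612 to 9135 at room temperature, with a median change of 0.13 after scaling. Striated muscle miRNAs moved with the groups: 3 of the 4 compared fell, of 7 listed, where 13 of all 189 miRNAs fell (6.88%). The median change of the 4 was −1.92, and the sum of the 7 was 1943 to 6662 units in the cold and 10506 to 24321 at room temperature. Of the stromal list 2 of 4 compared fell, of 5 listed, with a median change of −0.64, at 529 to 864 units against 1157 to 1786. The changes of 3 of these 4 were negative. That of miR-199a-5p was positive at 0.68 (limma, adjusted p = 0.169), and −0.37 after the surface step. The 7 leukocyte miRNAs had none that passed, with a median change of −0.38, at 508 to 1097 units against 1241 to 1897. The sum of the 2 endothelial miRNAs was 7476 to 12482 units in the cold and 11310 to 18880 at room temperature, and neither passed (median change −0.22). The 3 erythroid miRNAs, at 11159 to 23968 against 11000 to 22202, did not pass either, with a median change of 0.64. The liver miRNA miR-122 read 1.17 to 1.74 units against 7.01 to 177.4, and did not pass, nor did the 1 of 3 neural miRNAs that was compared. After the surface step that neural miRNA, miR-128, passed at −0.78 (limma, adjusted p = 0.0495). So did the 4 striated muscle miRNAs compared and 2 of the stromal list, where 18 of 189 miRNAs (9.52%) passed. None of the 6 epithelial miRNAs was bright enough to compare. The part of these other cells in the levels of miR-26 and miR-101 was not tested, and in pieces of tissue fewer cells of a type and less RNA per cell cannot be told apart.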

How the data were processed

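The authors deposited the scanner output of 8 one-colour arrays and a value table. Per the file headers the deposited spot intensity was written, with background subtracted, by Agilent Feature Extraction 10.7.3.1. Version 9.5.3.1 is the one in the submitters' processing notes. The deposited value table held the same intensities (largest difference 0, column medians 1.12 to 1.55 units), unscaled and not logged. Flags for spots well above background and row positions are the deposited software's own.

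Control spots and outlier-flagged spots (2.09% to 2.63% per array) were left out, except in the values by printing row, which use every spot, with signals under 1 unit set to 1. Spots of a probe were averaged. The scale of an array was the 75th percentile of the 267 probes that exceeded background on all 8 arrays; values were divided by it, floored at 0.01 and put on the log2 scale. Kept probes had over 0.5 of their spots well above background on each array of 1 group or both (329 of 1712 probes, 189 mouse miRNAs). The percentile was 627 to 918 units in the cold mice and 863 to 1408 at room temperature, and 177 to 187 and 200 to 227 mouse miRNAs were well above background. Cold minus room temperature was fitted over the 189 miRNAs with limma 3.58.1 in R 4.3.3, p-values were adjusted by Benjamini-Hochberg and called under 0.05, and single values were tested by exact permutation over mice. The surface was a loess over row and column (span 0.3). The script was tested on simulated data. The normexp alternative (offset 50) used the median spot and background signals. The members, the lists and the alternatives were chosen with earlier results of these data known. Named miRNAs were the members, their passenger strands, the 3 closest patterns per member, and from the 2 pathway lists those past the threshold and the 3 with the smallest p. The mice were separate animals, and their numbers do not pair the groups.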

Additional observations from a re-analysis of the deposited data

How the results depend on the processing

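The results were recomputed under 20 other settings, and the differences between sisters under 19. Those differences have no value at the setting that fitted the 8 arrays with mouse as a random block. Of the settings, 3 (the middle rows 49 to 144, the surface and the median over spots) were chosen after the data were seen. The change of miR-101b kept its sign and did not pass in all 20 (−0.64 to −0.02; limma, adjusted p = 0.0604 to 0.948), and that of miR-101a kept its sign in all 20 (−0.68 to −0.08). miR-101a passed with the brightest probe only (−0.68, adjusted p = 0.0185), where the room temperature mice decide which probe is the brightest, which favours a drop.

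The sign of miR-26a turned with the brightest probe (0.10), the middle rows (0.046) and the first array of mice 1 and 4 (0.0084), and leaving out 1 mouse at a time gave −0.15 to 0.11. Relative to the median of all miRNAs it stood at −0.09 in the middle rows and −0.04 as reported. The sign of miR-26b turned with the brightest probe (0.23), the middle rows (0.24), the surface (0.091) and the median over spots (0.076), and leaving out 1 mouse gave −0.13 to 0.0053. The difference between the miR-26 sisters turned with normexp (−0.0064), the brightest probe (−0.13), total signal (−0.042), the middle rows (−0.19), the surface (−0.29) and the median over spots (−0.22), and ran from −0.091 to 0.13 without 1 mouse. That between the miR-101 sisters turned with total signal (0.095), no filter on dim probes (0.36) and the middle rows (0.069), and ran from −0.18 to 0.066 without 1 mouse. The cause was not tested.

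The number of miRNAs past the threshold, 29 as reported, was 44 with quantile normalisation, 11 with no scaling, 6 with normexp, 5 with no filter, 16 with probes well above background on all arrays and 18 with the surface (14 shared), and 8 (without mouse 6) to 33 without 1 mouse. With no filter all 566 miRNAs were tested. Scaling to control RNAs moved the median of all miRNAs to −0.34 and no scaling to −0.46, normexp to 0.21 and the middle rows to 0.14, against −0.02. The split of higher and lower calls was 16 and 13 as reported. It was 11 and 17 when the percentile was taken over all probes, 3 and 33 after scaling to control RNAs, and 1 and 10 without scaling.

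No paired analysis was possible because the mouse numbers are not shared between the groups. With 3 mice per group on 1 slide, the data remained compatible with changes anywhere inside the intervals given.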
